A study of Emberiza melanocephala with 4 samples.

Results

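Transcripts of 4 cytoskeletal genes, ACTB, DSTN, PFN2 and DYNLL2, were followed through RNA libraries from Emberiza melanocephala, the black-headed bunting, a songbird that migrates. Members are the transcripts that carry one of these reference gene names, 4 of the 278 gene symbols in the files. The genes were chosen by measured values of these same libraries, namely large FPKM ratios for DSTN, DYNLL2 and PFN2 and the wide listing of ACTB. Their levels and ratios are therefore descriptions, and no test stands behind them.

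Actin filaments form a network under the cell membrane that is built and taken apart without pause. Profilins hand actin monomers to growing ends, and proteins of the cofilin family sever and depolymerise old filaments. In neurons this turnover shapes growth cones and dendritic spines, and in hepatocytes an actin web surrounds the bile canaliculi. Cytoplasmic dynein is the motor that carries cargo along microtubules toward the cell centre, which in axons means back to the cell body. These roles are known mainly from mammals.

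The birds were caught from the wild, and total RNA of hypothalamus and liver was sequenced by pyrosequencing, which yields few but long reads. The 4 groups are a short-day state (SD) and a long-day state (LD) in each tissue, with 1 library each, and all groups share the wild origin. The sources used here do not give the hours of light, the age and sex of the birds, or how many birds went into a library. Season and tissue follow the library titles, although the season recorded for 2 of the 4 libraries (LD hypothalamus and SD liver) contradicts the title. With 1 library per group there is no replicate, so no error, p-value or test is given, and every difference is a difference between 2 libraries.

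Tissue markers also go against the labels of SD hypothalamus and LD liver, so all libraries are called by their labels only. Of 16 neuron markers, 2 were listed in the library labelled LD hypothalamus and 4 in that labelled LD liver, with summed FPKM of 329 and 561, and none in the SD libraries. SNAP25 alone gave 290 and 462 FPKM of these sums. GAP43 went the other way, at 38.8 and 26.1 FPKM, and STMN2 and SLC32A1 were listed in LD liver only. FPKM is the mean coverage per base of a transcript, scaled to library size. Of 11 glia markers, 2 were listed in each LD library (summed FPKM 133 and 331) and none in the SD libraries. The gap between these sums came from SPARC (41.5 and 244 FPKM, on different transcript models), while GPM6B was nearly level (91.2 and 87.1 FPKM). Of 23 liver markers, each SD library listed 2 (summed FPKM 338 in hypothalamus and 666 in liver), LD liver listed 1 (20.9) and LD hypothalamus none. These sums were almost all APOA1, at 327 FPKM in SD hypothalamus, 655 FPKM in SD liver and 20.9 FPKM in LD liver. Its transcript models had 1579, 892 and 1579 bases in these libraries, so these FPKM are not on 1 scale of length. In aligned bases per aligned megabase, which does not divide by length, APOA1 was at 516, 585 and 33.0. The other listed liver marker, ONECUT1, had 10.9 and 11.1 FPKM in SD hypothalamus and SD liver. None of 16 hypothalamic markers and none of 10 muscle or 8 red blood cell markers was listed in any library, and no locus carried the symbol ALB, for albumin, the defining secreted protein of hepatocytes. The part of tissue mixture in the values of the 4 genes was not tested. In bulk RNA, fewer cells of a type and less RNA per cell cannot be told apart.

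The sequence behind each value was limited. The SD and LD libraries of hypothalamus held 15.8 and 13.3 aligned megabases and listed 36 and 131 loci with a gene symbol, and those of liver held 20.8 and 17.8 megabases and listed 67 and 186. All 4 genes carried their name in both LD libraries, whereas each SD library named 2 of them. DSTN and DYNLL2 were named in SD hypothalamus, and ACTB and PFN2 in SD liver. A gene that a file does not list is not a gene at 0, and the files do not say why a locus is missing. Read counts were not analysed here, so the precision of a value is judged from the aligned bases behind it.

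ACTB encodes beta-actin, the cytoplasmic actin from which most non-muscle filaments are built. Its reference transcript (ENSFALG00000013828) lies on the plus strand of scaffold JH603209.1 at 1743400 to 1750200 of the flycatcher build and has 6 exons of 3664 bases in all. The files mark exons but not which of their bases are coding or untranslated. Its level was 156 FPKM in LD hypothalamus, 87.0 FPKM in SD liver and 178 FPKM in LD liver. ACTB was thus the highest of the 4 genes per length wherever it was named, and its named level was lowest in SD liver. Behind these levels stood 7564, 6628 and 11612 aligned bases. Actins are near-identical in sequence, so reads may be shared between family members and the values of ACTB are uncertain in that respect.

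In SD hypothalamus no transcript carried the name ACTB, but an assembled transcript without a name (1745211 to 1748398, 5 exons, 1709 bases) covered the same locus at 228 FPKM. It starts inside exon 2 of the reference model and ends inside exon 6, so that it lacks exon 1 and most of the long last exon. Its higher FPKM therefore cannot be set directly against that of the 3664-base model. Within the reference model the last exon made up 68.9% of the length but held 19.0%, 20.6% and 20.9% of the aligned bases in LD hypothalamus and in SD and LD liver. The level without the last exon was 405, 222 and 453 FPKM in these libraries, against 42.9, 26.0 and 54.0 FPKM on the last exon.

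Exons 3 to 5 have the same boundaries in the assembled and in the reference transcript, which gives 861 bases on which all 4 libraries can be read alike. On these exons ACTB had 362 FPKM in SD hypothalamus, 493 FPKM in LD hypothalamus, 275 FPKM in SD liver and 539 FPKM in LD liver. The 2 LD libraries stood highest and SD liver lowest. Exon 4 alone, which held the most aligned bases in every library, gave 467, 531, 365 and 632 FPKM in the same order. Exon 3 was less even, with 87.5 FPKM in SD hypothalamus against 316, 157 and 399 FPKM in the other libraries. The choice of exons was made after the values were seen.

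**Figure D1:**
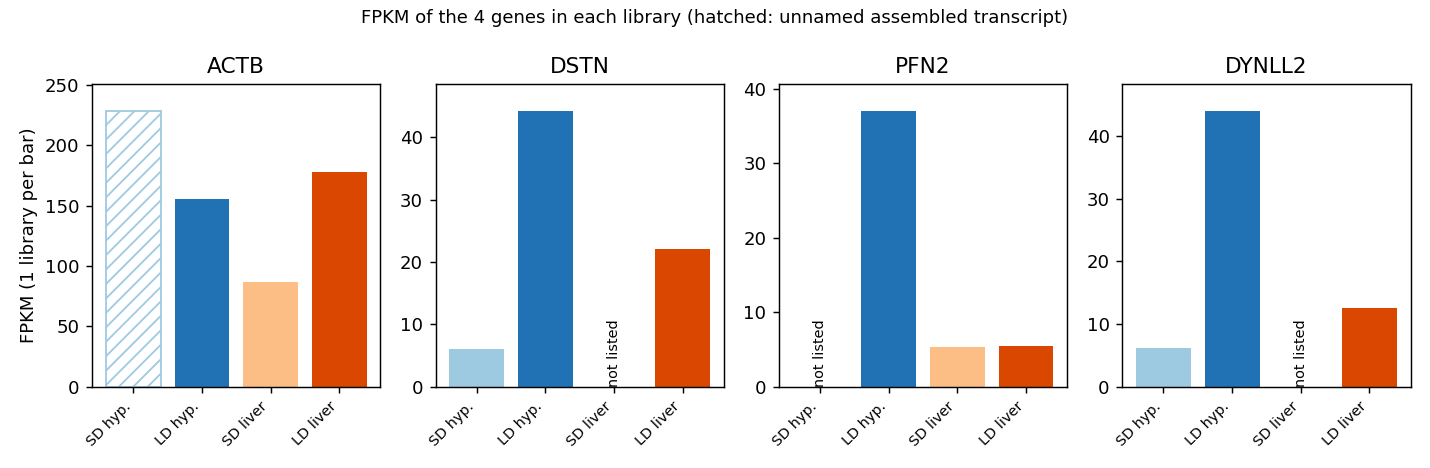
FPKM of ACTB, DSTN, PFN2 and DYNLL2 in each library, 1 bar per library on axes that start at 0, with the hatched bar for the unnamed assembled transcript at the ACTB locus. DSTN, PFN2 and DYNLL2 were highest in LD hypothalamus (44.2, 37.0 and 43.9 FPKM), and ACTB, where it carried its name, in LD liver (178 FPKM).

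DSTN encodes destrin, also called actin-depolymerising factor, a member of the cofilin family that binds monomers and disassembles filaments. Its reference transcript (ENSFALG00000007550; JH603394.1, 159774 to 165879, plus strand) has 3 exons of 4787 bases. DSTN stood at 6.08 FPKM in SD hypothalamus, at 44.2 FPKM in LD hypothalamus and at 22.1 FPKM in LD liver, with no listing in SD liver. LD hypothalamus was therefore highest and SD hypothalamus lowest among the 3 libraries with a value. The aligned bases behind these levels numbered 460, 2809 and 1877.

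The last exon of DSTN made up 91.5% of the transcript and carried 57.4% of its aligned bases in SD hypothalamus, 77.1% in LD hypothalamus and 72.7% in LD liver. On that exon the levels were 3.81, 37.2 and 17.5 FPKM. On exons 1 and 2 together, 406 bases, they were 30.6, 120 and 70.9 FPKM, which keeps the order of the libraries. Exon 2, a stretch of 77 bases, had a coverage of 1 in both SD hypothalamus and LD liver and of 3.34 in LD hypothalamus. In FPKM it was at 63.3 in SD hypothalamus, 252 in LD hypothalamus and 56.2 in LD liver. On exon 2 alone SD hypothalamus was thus not the lowest, by the library scale only.

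PFN2 encodes profilin 2, the profilin that in mammals is most abundant in brain. Its reference transcript (ENSFALG00000005277; JH603334.1, 1287754 to 1290196, plus strand) is the shortest of the 4 models, with 2 exons of 608 bases. PFN2 stood at 37.0 FPKM in LD hypothalamus, at 5.32 FPKM in SD liver and at 5.40 FPKM in LD liver, with no listing in SD hypothalamus. LD hypothalamus stood alone, and the 2 liver-labelled libraries lay side by side. PFN2 is also the least covered member, on 299, 67.3 and 58.4 aligned bases, so the low values rest on less sequence than the length of 1 typical pyrosequencing read. Exon 1 gave 24.5, 1.75 and 2.49 FPKM and exon 2 gave 102, 23.9 and 20.5 FPKM, with LD hypothalamus highest on each.

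DYNLL2 encodes a light chain of the LC8 type, a small subunit shared by cytoplasmic dynein and the actin-based motor myosin V. Its reference transcript (ENSFALG00000005073; JH603226.1, 1290283 to 1297195, plus strand) has 3 exons of 2163 bases. DYNLL2 stood at 6.12 FPKM in SD hypothalamus, at 43.9 FPKM in LD hypothalamus and at 12.6 FPKM in LD liver, on 209, 1261 and 484 aligned bases, with no listing in SD liver. The order of the 3 libraries was the same as for DSTN.

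The exons of DYNLL2 did not all set SD hypothalamus below LD liver. The last exon (1994 bases) was at 3.06, 38.9 and 10.5 FPKM in SD hypothalamus, LD hypothalamus and LD liver. Exons 1 and 2 together (169 bases) were at 42.2, 103 and 37.5 FPKM. SD hypothalamus was thus lowest on the last exon only. On the first exons it and LD liver held the same 113 aligned bases, so their FPKM differ there by the library scale alone. Exon 2 held 92.7 aligned bases in SD hypothalamus and the same number in LD liver, at a coverage of 0.67 in each.

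**Figure D2:**
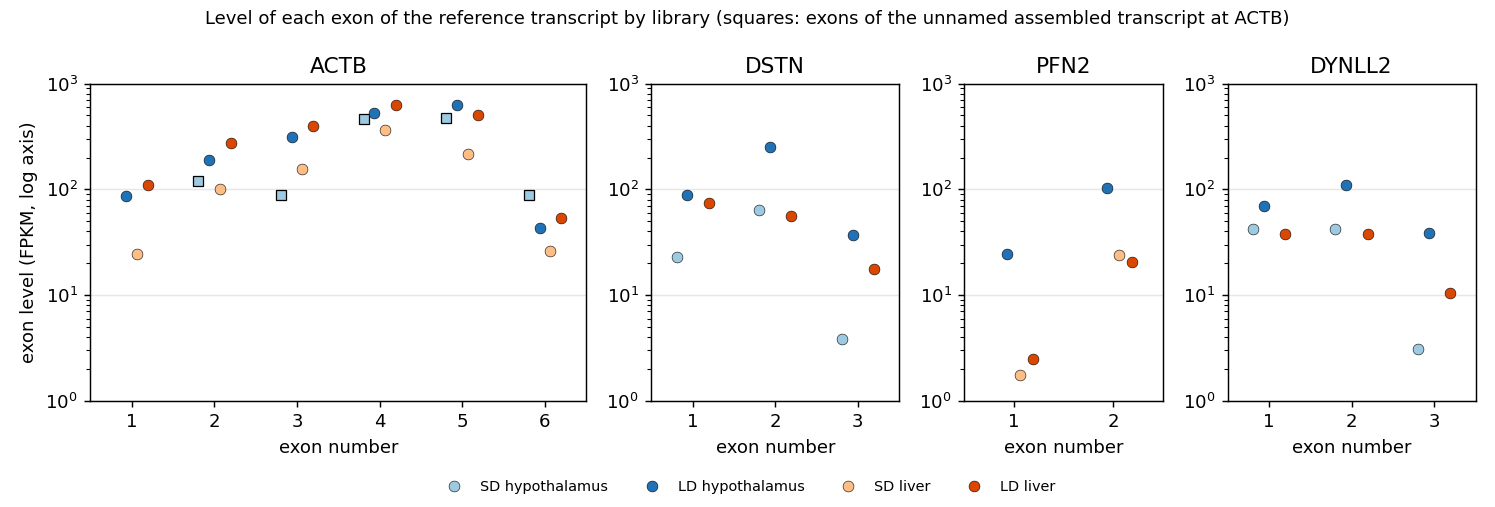
Level of every exon of the 4 genes by library, in FPKM on a log axis against the exon number of the reference transcript, with squares for exons of the unnamed assembled transcript in SD hypothalamus, of which the outer ones are shorter than the reference exon. The last exons of ACTB, DSTN and DYNLL2 lay below the exon directly before them, and LD hypothalamus was highest on every exon of DSTN, PFN2 and DYNLL2.

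A last exon with thinner coverage than the mean of the exons before it was common in these libraries. It was seen in 205 of 282 listed reference transcripts with more than 1 exon (72.7%), with 70.8% to 76.9% in the single libraries. ACTB, DSTN and DYNLL2 showed it in every library that named them, while in PFN2 the last exon was the better covered one in all 3. Aligned bases per exon were whole numbers, to within 0.02, in 8 of 9 exons of DSTN, 5 of 9 of DYNLL2, 1 of 6 of PFN2 and 3 of 18 of ACTB, against 77.9% of all exons in the files. StringTie counts a read aligned to several places in fractions, and reads also divide between overlapping transcripts. No other transcript was listed at the loci of DSTN, PFN2 and DYNLL2. Why bases of PFN2 and DYNLL2 were fractional was not tested, so shared reads may make their values uncertain as well.

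Per length, the members kept different proportions to one another. DSTN stood at 99.5% of the DYNLL2 level in SD hypothalamus, at 101% in LD hypothalamus and at 175% in LD liver. DSTN was at 28.4% of the ACTB level in LD hypothalamus and at 12.4% in LD liver, and DYNLL2 at 28.2% and 7.06%. PFN2 was at 23.8% of ACTB in LD hypothalamus and at 6.11% and 3.03% in SD and LD liver. Measured against ACTB, all 3 partners were thus relatively higher in LD hypothalamus than in the other libraries where both genes carried their names. These 3 were picked for large FPKM ratios between the same libraries, so nothing is read from that order. Among loci with a symbol, ranked by FPKM from the top, the ACTB locus was 3rd of 36, 9th of 131, 5th of 67 and 10th of 186, with the libraries in the order SD and LD hypothalamus, then SD and LD liver. DSTN was 31st, 41st and 110th in the libraries that listed it, DYNLL2 30th, 42nd and 142nd, and PFN2 55th, 58th and 171st.

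The first comparison sets the library titled LD hypothalamus against that titled SD hypothalamus. Tissue markers differed in this contrast. Liver markers, almost all APOA1, had a summed FPKM of 338 in SD and none was listed in LD. Neuron and glia markers had 329 and 133 in LD and none was listed in SD. The part of all these markers in the ratios was not tested. DSTN and DYNLL2, the 2 members named in both, were each higher in LD hypothalamus, and both lay at least 2-fold apart. On the log2 scale of FPKM with a pseudocount of 1, used throughout, the ratio was 2.67 for DSTN (6.39-fold) and 2.66 for DYNLL2 (6.32-fold). Across all 32 loci listed in both libraries, 34.4% were at least 2-fold apart and 21.9% at least 2-fold higher in LD, and the median log2 ratio was -0.27. These contrasts were in view when the genes were picked, so nothing is read from the count. In either direction, 3 of the other loci had a larger ratio than DSTN, a rank that likewise follows from how the genes were picked.

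For both genes the size of the ratio depended on the exon. DSTN had log2 ratios of 1.91, 1.97 and 2.99 on exons 1, 2 and 3, and 1.93 with the last exon left out. DYNLL2 had 0.72, 1.36 and 3.30, and 1.27 with the last exon left out. Both directions held on each exon, but exon 1 of DYNLL2 lay within 2-fold. That exon held only 20 and 28 aligned bases in SD and LD hypothalamus. The whole SD value of DYNLL2 rests on 209 aligned bases and that of DSTN on 460, so both ratios may be far off. A scale that does not divide by length (aligned bases per aligned megabase, called length-free) gave 2.82 and 2.76. Reference models were the same in both libraries, so this change comes from the pseudocount alone and checks nothing.

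ACTB has no named value in SD hypothalamus, and its difference depended on what was counted. The whole locus, with the assembled transcript and an 84-base annotated feature nested in it, gave a log2 ratio of -0.38 in FPKM and 0.54 on the length-free scale. Exons 3 to 5, which do not depend on the transcript ends, gave 0.44, with exon 4 at 0.19, exon 5 at 0.43 and exon 3 at 1.84. On the shared exons LD hypothalamus was the higher library, within 2-fold. PFN2 was not listed in SD hypothalamus, so no ratio was formed.

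The second comparison sets LD liver against SD liver, and of the members only ACTB and PFN2 were named in both. The liver markers, almost all APOA1, were at a summed FPKM of 666 in SD and 20.9 in LD. APOA1 was on transcript models of 892 and 1579 bases there, at 585 and 33.0 aligned bases per aligned megabase. Neuron and glia markers were at 561 and 331 in LD with none listed in SD. The part of all these markers was not tested here either. ACTB was higher in LD liver at a log2 ratio of 1.03 (2.04-fold), just past the 2-fold line, and PFN2 stood at 0.02 (1.01-fold). Of all 53 loci listed in both libraries, 37.7% were at least 2-fold apart and 18.9% at least 2-fold higher in LD, around a median of -0.36. For ACTB, exon ratios ran from 0.79 on exon 4 to 2.13 on exon 1, all with LD higher, and exons 3 to 5 gave 0.97. The whole locus gave 0.84 in FPKM and 1.03 on the length-free scale. It adds only the 84-base feature, on 64.4 and 66.2 aligned bases in SD and LD liver. The side of the 2-fold line thus depends on the transcripts summed and on the scale. PFN2 was at 0.35 on exon 1 and at -0.21 on exon 2, from 18.5 and 22.6 aligned bases on the first and 48.8 and 35.8 on the second in SD and LD liver. DSTN and DYNLL2 were listed in LD liver only of this pair.

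The third comparison, SD liver against SD hypothalamus, has no member named in both libraries. Of all 67 loci listed in both, 20.9% were at least 2-fold apart. The ACTB locus as a whole was lower in SD liver at a log2 ratio of -1.19, but at -0.29 on the length-free scale and at -0.40 on exons 3 to 5. The exons did not share a direction, with exon 3 at 0.84, exon 4 at -0.36 and exon 5 at -1.13.

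The fourth comparison, LD liver against LD hypothalamus, is the only one in which all 4 members were named in both libraries, each on the same reference transcript. Neuron and glia markers had summed FPKM of 561 and 331 in LD liver, against 329 and 133 in LD hypothalamus. Not every marker followed the sums. GAP43 was at 26.1 FPKM in LD liver and at 38.8 FPKM in LD hypothalamus, and GPM6B was nearly level. Liver markers had 20.9 in LD liver, and none was listed in LD hypothalamus. The part of all these markers in the ratios was not tested. PFN2 was lower in LD liver at a log2 ratio of -2.57, DYNLL2 at -1.73 and DSTN at -0.97, while ACTB stood at 0.19. At the 2-fold line 2 of the 4 were lower and none higher, against 26.8% of all 142 loci at least 2-fold apart and 12.7% at least 2-fold lower, around a median of 0.03. These contrasts, too, were in view when the genes were picked. DSTN and ACTB lay within 2-fold.

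Exon by exon, PFN2 was at -2.87 and -2.26 and DYNLL2 at -0.89, -1.53 and -1.80, each lower in LD liver throughout. DSTN spread more widely, at -0.25 on exon 1, -2.14 on exon 2 and -1.05 on exon 3. ACTB lay between -0.34 on exon 5 and 0.55 on exon 2. The low value of PFN2 in LD liver rests on 58.4 aligned bases, so the ratio may be far off. All 4 comparisons share libraries, and LD hypothalamus enters both contrasts in which DSTN and DYNLL2 have ratios.

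**Figure D3:**
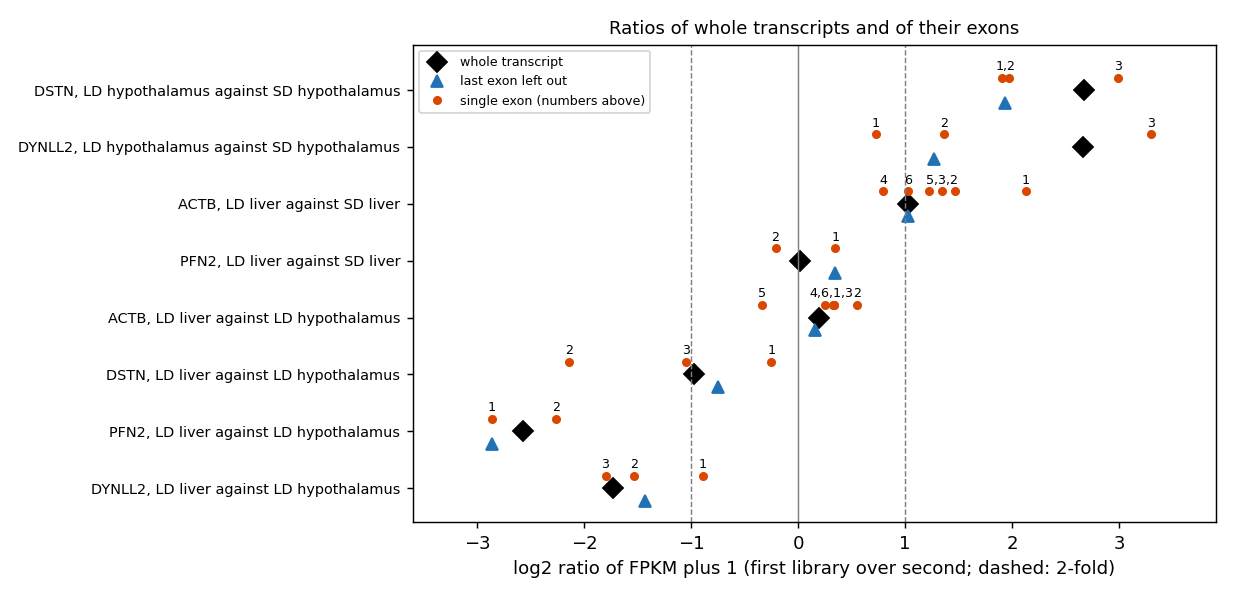
Log2 ratios of FPKM plus 1 for the 8 comparisons in which a member was named in both libraries, with diamonds for the whole transcript, triangles with the last exon left out and dots for single exons numbered above. For DSTN and DYNLL2 in hypothalamus the last exon (2.99 and 3.30) lay to the right of the other exons, and the 2 members below -1 in the LD pair stayed there with the last exon left out.

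**Figure D4:**
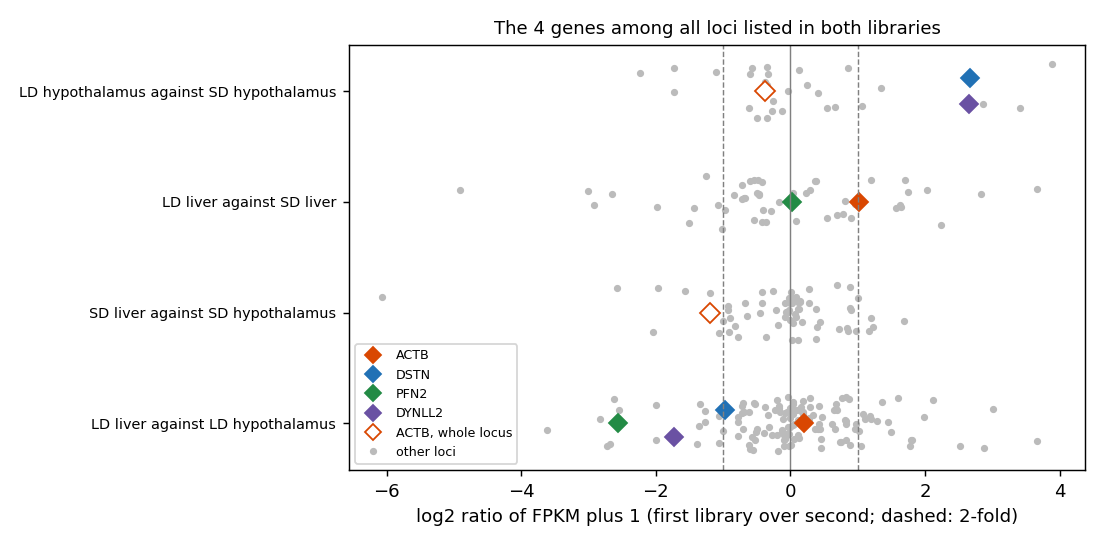
Log2 ratios of FPKM plus 1 of every locus listed in both libraries of a comparison (grey) and of the members (diamonds, open for the whole ACTB locus where the name is missing in 1 library), with dashed lines at 2-fold. DSTN and DYNLL2 lay near 2.67 in the hypothalamus pair, and PFN2 and DYNLL2 at -2.57 and -1.73 in the LD pair.

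Other genes of the same machinery were sparsely listed. Of 142 genes on 7 lists of actins, actin regulators, myosins, dynein subunits, dynactin and microtubule proteins, 10 were listed at a locus in any library, the 4 members among them. They numbered 4 and 7 in SD and LD hypothalamus and 2 and 8 in SD and LD liver, so that the LD libraries, which list more loci, also listed more of these genes. None of 9 myosins and none of 22 genes of the dynein motor and dynactin was listed, so DYNLL2 was the only dynein subunit seen.

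Among the 6 other genes, CFL2, a muscle-type cofilin related to DSTN, was at 18.2 FPKM in LD hypothalamus and at 12.4 FPKM in LD liver, a log2 ratio of -0.52. The alpha-tubulin TUBA1C had 105 and 68.1 FPKM in the same libraries, at -0.62, and as a tubulin with near-identical relatives it is uncertain in the same way as ACTB. Both ratios lay within 2-fold, as that of DSTN did in this pair. The remaining 4 were each seen once. ACTG1, the other cytoplasmic actin, had 32.0 FPKM in LD liver, and STMN2, a tubulin-binding protein of neurons, had 46.9 FPKM there. STMN3, a relative of STMN2, had 40.6 FPKM in LD hypothalamus. The monomer-binding thymosin TMSB4X had 21.1 FPKM in SD hypothalamus, on 44.0 aligned bases.

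Likeness of pattern was measured as the root mean square difference between log2 levels centred on their mean, among loci with a symbol listed in exactly the same libraries. DSTN and DYNLL2 were each the closest match of the other, at 0.36 over 3 libraries, among 5 candidates. Both were picked for large ratios between these same libraries, so their likeness owes to that choice in part and nothing is read from it. EIF4G2, a translation factor, came next for each (0.51 from DSTN and 0.86 from DYNLL2), followed by YWHAQ, a 14-3-3 adaptor (0.79 and 1.14). EIF4G2 had 36.2, 270 and 269 FPKM in SD hypothalamus, LD hypothalamus and LD liver, and so differed from both members in its high level in LD liver. For the ACTB locus, over 4 libraries and among 5 candidates, the closest were LRRC8D, which forms anion channels that open as cells swell (0.33), EIF4A2, a translation factor (0.43), and SLC25A6, a mitochondrial ADP/ATP carrier (0.84). These distances use the whole locus, whose FPKM in SD hypothalamus comes mainly from the shorter assembled transcript. The order of the ACTB matches may therefore depend on transcript models, and it was not measured on exons 3 to 5. PFN2 had no near match among 4 candidates, the closest being the RNA helicase DDX5 at 1.01, FBXL14 at 1.01 and ZBTB43 at 1.21.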

How the data were processed

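RNA of 4 libraries was measured by pyrosequencing, per the labels' protocols. The authors deposited 1 transcript assembly per library, for which StringTie 1.3.3b read a trimmed alignment with the gene models of Ensembl 89 for another songbird, the collared flycatcher (build FicAlb_1.4), per the file headers. The aligner is not given in the sources used here, and reads of a bunting can be lost where the flycatcher differs. The deposited text field holds coverage, FPKM and TPM per transcript and coverage per exon.

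Here FPKM was summed over transcripts with a member's reference gene name. Aligned bases are coverage times length, aligned megabases follow from the constant ratio of FPKM to coverage in a file, and an exon's FPKM is its coverage times that constant. Ratios are log2 of FPKM plus 1, formed only where both libraries list the gene. A difference of 2-fold was the line, with no test. Transcripts of all libraries were joined into 750 loci by exon overlap of at least 1 base on a strand or by a shared reference gene, and lists were matched at loci. Whether the libraries kept the strand is not stated.

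Members and lists were chosen with earlier results of these data known. Besides the 4 members, the text names every listed gene of the cytoskeleton lists, the 3 closest loci of each member and some tissue markers. Alternatives changed the pseudocount, the unit, the transcripts summed, the centring and the coverage minimum, and 2 on exons were added after seeing the data. Code ran in Python 3.11.15 and was tested on simulated data.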

Additional observations from a re-analysis of the deposited data

Results flagged for a closer look

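Between the libraries titled LD and SD, the ACTB locus moved in opposite directions under the 2 tissue labels when all its transcripts were summed, at a log2 ratio of -0.38 for LD against SD hypothalamus and 0.84 for LD against SD liver. The difference was not tested, since each group has 1 library. Each pair holds a library whose recorded season contradicts its title. Under both labels the liver markers, almost all APOA1 by FPKM, were lower or not listed in LD, and neuron and glia markers were listed in LD alone. Season and tissue therefore cannot be told apart. The hypothalamus value sets an assembled transcript of 1709 bases against a reference transcript of 3664 bases. On exons 3 to 5, which are the same in all 4 libraries, the values were 0.44 and 0.97, both higher in LD. On the length-free scale the whole locus gave 0.54 and 1.03, also higher in LD.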

How the results depend on the processing

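Of 76 alternatives to the 8 ratios, 66 stayed on the same side of 2-fold and within 1.5-fold of the reported ratio, and none reversed. Many of the 66 could not move. Each member was named on a single reference transcript per library, so taking only the highest or only reference transcripts returned the same value. The whole locus did so for DSTN, PFN2 and DYNLL2, and the coverage minimum for ACTB. The length-free scale could shift these ratios only through the pseudocount, since both libraries of a ratio used the same model. Ratios that the coverage minimum removed are not among the 76, so these counts are no measure of stability. With a pseudocount of 10, the log2 ratios of DSTN and DYNLL2 in the hypothalamus pair fell to 1.75 and 1.74, that of PFN2 in the LD pair was -1.61 and that of ACTB between the liver labels was 0.96. With the last exon left out, DSTN and DYNLL2 in the hypothalamus pair were at 1.93 and 1.27. ACTB between the liver labels was at 0.84 over the whole locus and at 0.97 on exons 3 to 5. Its named transcript was at 1.39 in deposited TPM and at 1.38 when centred on the median ratio. The whole locus gave 1.03 on the length-free scale. With the pseudocount of 10, over the whole locus and on exons 3 to 5, the members 2-fold apart between the liver labels were therefore 0 in place of 1. DSTN in the LD pair crossed the line at -1.001 with a pseudocount of 0.1 and at -1.003 when centred on the median. Over the whole locus, 1 member (ACTB) was 2-fold apart in the SD pair in place of 0. At a coverage of at least 1 only ACTB was left, so that 0 members were 2-fold apart in the hypothalamus and LD pairs. All loci 2-fold apart then numbered 4 of 19, 9 of 28, 7 of 48 and 5 of 68 in the 4 comparisons. The main counts were 11 of 32, 20 of 53, 14 of 67 and 38 of 142. With reference transcripts only they were 12 of 34 between the liver labels and 6 of 27 in the SD pair. With a pseudocount of 10 there were 9 of 67 in the SD pair. Fewer loci are compared under the coverage and reference settings. No paired analysis was possible because each group has 1 library.

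The limits are those of 1 library per group, 58.4 to 11612 aligned bases per member value, and a flycatcher annotation whose long last exons are thinly covered. Further limits are tissue markers that go against the labels of SD hypothalamus and LD liver, and names missing from a file for reasons that were not tested.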

Other observations

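An annotated feature of 84 bases without a gene symbol (ENSFALG00000015734; JH603209.1, 1747130 to 1747213, plus strand) lies almost wholly within exon 5 of ACTB and was listed in all 4 libraries. It had 56.3 and 62.9 FPKM in SD and LD hypothalamus and 36.9 and 44.3 FPKM in SD and LD liver, on 74.7, 70.1, 64.4 and 66.2 aligned bases. In aligned bases it varied less between libraries than exon 5 of ACTB, which held 1353, 1529, 810 and 1617. Reads divide between overlapping transcripts, so the values of the feature are not independent of those of exon 5, and nothing is read from this difference.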
